A study of Mus musculus with 9 samples.

Results

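Choroid plexus epithelium genes were followed through 9 mouse whole-brain RNA-seq libraries. The genes were taken by symbol and comprised Ttr, Kl, Folr1, Aqp1, Otx2, Clic6, Kcne2, Sostdc1, Slc4a5 and Enpp2, that is 10 of the 53465 genes in the count table, and all 10 passed the filter on low counts that left 18501 genes for testing. Male C57BL/6 mice, 7 weeks old at the start, formed 3 groups, and 3 animals from each group were sequenced, each with its own library. Normal controls (CON) had standard chow and saline. Mice with diabetic neuropathic pain (DNP) ate a diet containing 60% fat for 4 weeks, were then injected daily with 50 mg/kg of streptozotocin, which kills the insulin-producing cells of the pancreas, for 7 days, and received saline. Baclofen-treated mice (BAC) had the same diet and streptozotocin, followed by 8 mg/kg of baclofen, which activates GABA-B receptors, for 7 days. Mice given diet and streptozotocin were kept only if blood glucose stayed high and pain thresholds fell, and were then assigned to DNP or BAC at random. Diet and streptozotocin came together in DNP and BAC and cannot be told apart, and no group received baclofen without them. DNP 2 below stands for replicate 2 of the DNP group, and likewise for the others.

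The choroid plexus is a frond of tissue inside the brain ventricles. Its single layer of epithelial cells secretes cerebrospinal fluid by moving ions and water from blood to ventricle, forms a barrier with tight junctions, and releases carrier proteins and signals into the fluid. Because these cells are few in a brain but make some transcripts at very high levels, their genes can be read in whole-brain RNA. In such bulk RNA, fewer plexus cells and less RNA per plexus cell cannot be told apart.

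Library totals were 13107382 to 16008129 counts, and no 2 libraries of a group were alike within sampling noise (chi-square per degree of freedom 15.1 to 116). Some libraries stood apart in marker genes of other brain regions. Hox genes, which mark hindbrain and spinal cord, gave 32 to 1000 counts for each of 7 listed genes in DNP 1, BAC 1 and BAC 3, and at most 2 counts in each of the other 6 libraries. The score of 9 brainstem and spinal cord markers (the mean of their log2 CPM, each minus its mean over the 9 libraries) was 3.81, 4.71 and 4.85 in these 3 libraries and -2.52 to -1.55 in the others. The score of 10 cerebellar markers ran from -3.43 in BAC 2 to 4.13 in CON 2. These scores thus differed between libraries labelled alike as whole brain, within groups as well as between them, and their part in the plexus values was not tested beyond the fits without the 3 libraries or with both scores as covariates, given further on.

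Among the secreted products, Ttr encodes transthyretin, the carrier of thyroxine and of retinol-binding protein in cerebrospinal fluid. Its counts were 7036, 3395 and 6289 in CON 1 to 3, 4015, 89 and 20285 in DNP 1 to 3, and 15998, 33 and 186 in BAC 1 to 3. Relative to library size, DNP 3 was 585 times as high as BAC 2. Both extremes therefore lay in mice given diet and streptozotocin, and the CON libraries lay between them. The within-group standard deviation of Ttr on the log2 CPM scale (CPM, counts scaled to a common library size after TMM normalization) was 3.54, the 12th largest of 16777 genes with a mean of at least 1 CPM, for which the median was 0.325.

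Kl encodes klotho, a co-receptor for fibroblast growth factor 23 that is also shed into the fluid. It had 334, 130 and 386 counts in CON, 145, 32 and 291 in DNP, and 576, 93 and 72 in BAC. Sostdc1, a secreted antagonist of BMP and Wnt signalling, gave 54, 21 and 75 counts in CON, 31, 5 and 106 in DNP, and 100, 17 and 34 in BAC. In CPM, DNP 2 was the lowest library for both genes and BAC 1 the highest.

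Enpp2 encodes autotaxin, which makes lysophosphatidic acid and is also expressed by oligodendrocytes. Its counts were 4649, 2750 and 5008 in CON, 6097, 2271 and 5803 in DNP, and 11360, 2076 and 4862 in BAC. This was the narrowest range of the 10 genes, a 5.76-fold difference in CPM between BAC 1 and BAC 2.

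Folr1 encodes the folate receptor that carries folate across the plexus. The counts were 54, 26 and 45 in CON, 23, 10 and 70 in DNP, and 89, 3 and 14 in BAC. Slc4a5, a sodium bicarbonate cotransporter of the plexus epithelium, had 66, 68 and 91 counts in CON, 50, 3 and 109 in DNP, and 182, 5 and 11 in BAC. For Slc4a5, the 3 lowest libraries had at most 11 counts and the other 6 at least 50.

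Kcne2, a beta subunit of potassium channels, had 45, 29 and 51 counts in CON, 36, 6 and 61 in DNP, and 130, 9 and 0 in BAC. The 0 in BAC 3 allows up to 3 counts, so the range over the 9 libraries was at least 50.0-fold in CPM (counting error only). Clic6, a chloride intracellular channel protein, had 246, 198 and 222 counts in CON, 128, 71 and 285 in DNP, and 353, 195 and 67 in BAC. Its 3 CON values were the closest to each other of any of the 10 genes, with a highest-to-lowest ratio of 1.16 in CPM.

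Aqp1 encodes the water channel of the apical membrane. It had 60, 23 and 67 counts in CON, 27, 166 and 57 in DNP, and 84, 44 and 9 in BAC. Unlike the other 9 genes, Aqp1 was highest in DNP 2. Otx2, a homeodomain transcription factor needed for plexus development, had 32, 111 and 56 counts in CON, 22, 8 and 99 in DNP, and 140, 2 and 87 in BAC. Its values in CON 2 and BAC 3 were high although Ttr was not.

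**Figure D1:**
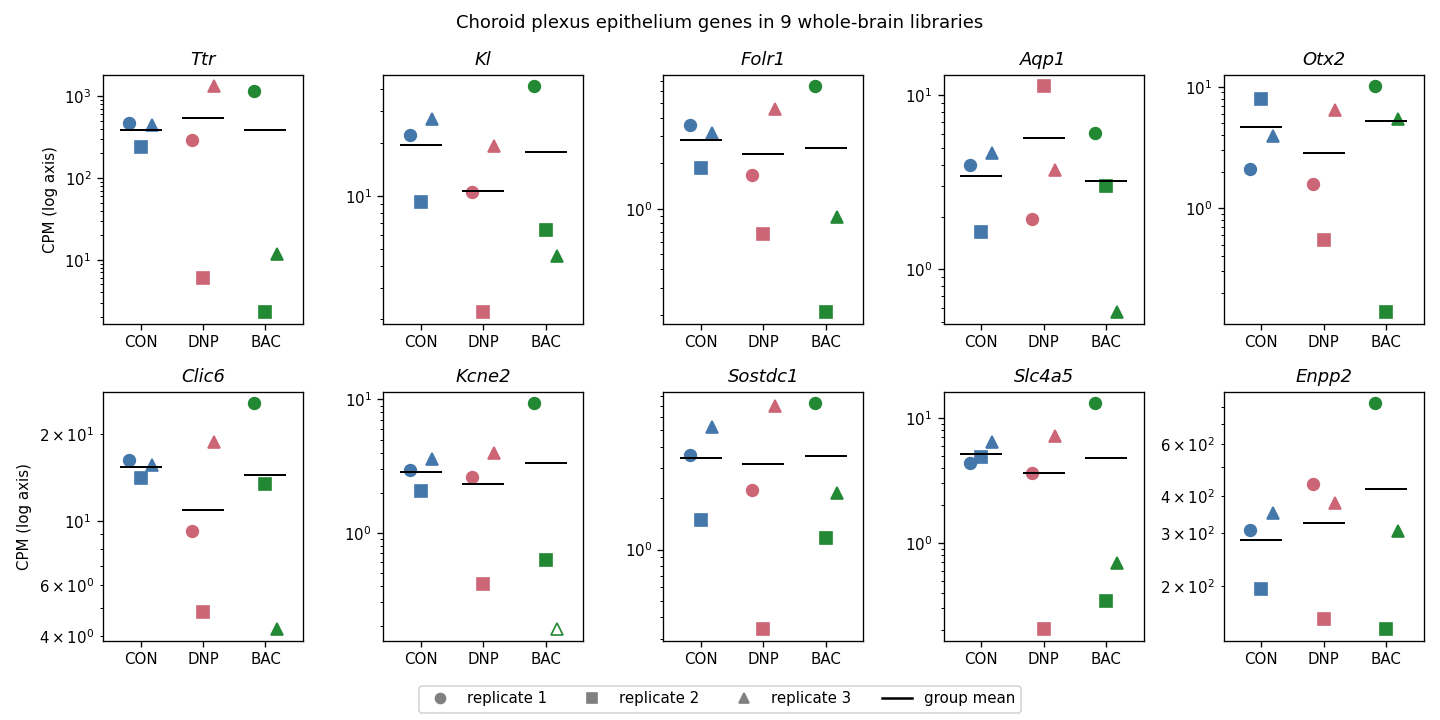
CPM of the 10 choroid plexus genes (log axes that differ between panels) in CON, DNP and BAC, with a marker for each replicate and a line at the mean of the 3 libraries of a group. The open triangle is the 0 of Kcne2 in BAC replicate 3, drawn near the bottom of the axis. The CON points of most genes lie within the range of the DNP and BAC points, which for Ttr run from 33 to 20285 counts.

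Levels per gene length were compared within CON as FPKM. Ttr was highest at 304 ± 89.9 FPKM (SD, n = 3), followed by Enpp2 at 38.7 ± 10.2 and Clic6 at 3.71 ± 0.14, and the ranges of these 3 genes did not overlap. Sostdc1, Kl, Kcne2 and Aqp1 followed with overlapping ranges at 1.87 ± 1.01, 1.81 ± 0.83, 1.58 ± 0.39 and 1.27 ± 0.57 FPKM. Slc4a5, Folr1 and Otx2 were lowest, at 0.66 ± 0.14, 0.50 ± 0.14 and 0.44 ± 0.29 FPKM, and also overlapped.

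The libraries ranked in a similar way for most of these genes. DNP 2, BAC 2 and BAC 3 were the 3 lowest libraries for 5 genes (Ttr, Kl, Folr1, Kcne2 and Slc4a5), and 4 others had 2 of these libraries among their 3 lowest. Aqp1 had 1. BAC 1 and DNP 3 were the 2 highest libraries for 6 genes, and 8 genes were highest in BAC 1. The low and the high libraries thus came from both DNP and BAC. The mean log2 deviation over the 10 genes was 0.65, 0.16 and 0.91 in CON, 0.10, -1.73 and 1.22 in DNP, and 1.86, -1.79 and -1.37 in BAC.

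Spread within a group was smallest in CON. The standard deviation of log2 CPM had a median over the 10 genes of 0.50 in CON (0.11 to 0.92), 1.56 in DNP (0.82 to 3.99) and 1.93 in BAC (1.27 to 4.63). Over all tested genes the corresponding medians were 0.30, 0.29 and 0.31. Within CON, the ratio of the highest to the lowest CPM was 1.16 to 3.73 for the 10 genes, whereas for Ttr it was 219 in DNP and 510 in BAC. The difference in spread between groups was not tested, and each spread rests on 3 libraries.

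**Figure D2:**
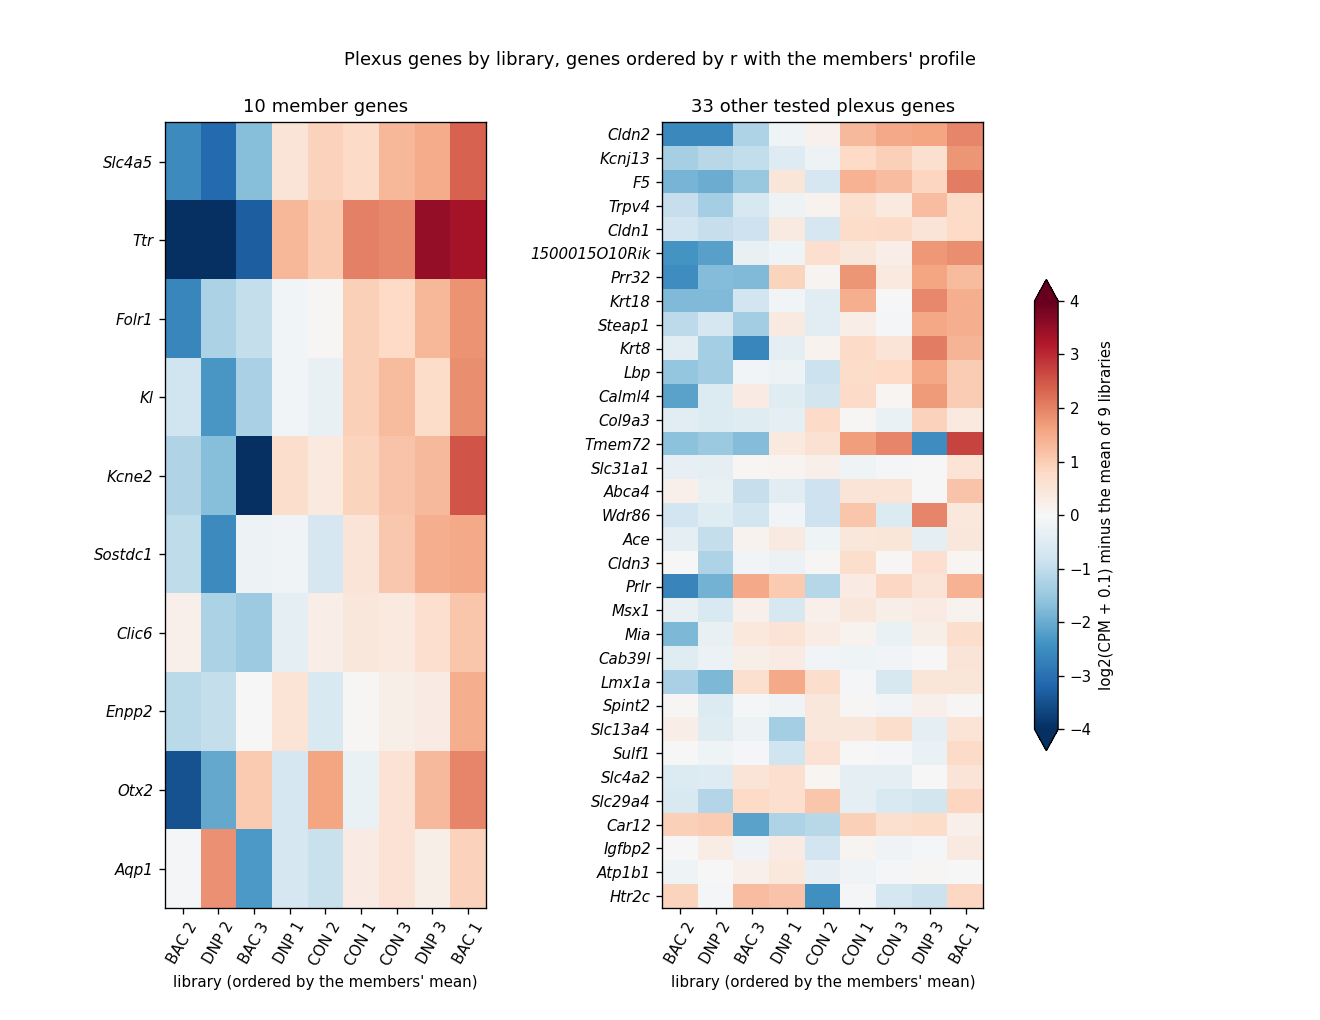
Log2(CPM + 0.1) minus the mean of the 9 libraries for the 10 plexus genes (left) and for 33 other tested plexus genes (right), with libraries ordered by the mean of the 10 genes and genes by their r with the mean profile of the 10. Colours end at 4 in each direction. BAC 2, DNP 2 and BAC 3 are blue in most of the upper rows of both panels, and BAC 1 and DNP 3 are red.

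How closely each gene followed the rest was described by Pearson's r over the 9 libraries between its log2 CPM and the mean standardized profile of the other 9 genes. The value was 0.96 for Slc4a5, 0.94 for Ttr and Folr1, 0.93 for Kl, 0.88 for Kcne2, 0.85 for Sostdc1, 0.78 for Clic6 and 0.77 for Enpp2. Otx2 followed less closely at 0.62, and Aqp1 hardly at all at 0.12. With deviations from the group means in place of the values themselves, r was 0.96 for Slc4a5, 0.97 for Ttr, 0.87 for Enpp2 and 0.14 for Aqp1. These points are libraries, and all genes of a library share its depth and tissue composition. Of the 9 libraries, 3 lay far below the others, so that r describes mostly the step between them.

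Among genes outside the 10, the most alike were Cldn2 (r = 0.97), Kcnj13 (0.96), F5 (0.96), Mfrp (0.95), Gmnc (0.95), Trpv4 (0.93), Tnfrsf18 (0.93), Ganc (0.92), Gm14322 (0.91) and Ing1 (0.91), over 9 libraries. They are the highest of 16767 genes ranked, and r does not measure the size of a difference. Tnfrsf18 had only 53 to 77 counts over the libraries, Gm14322 44 to 76, Ganc 122 to 262 and Ing1 253 to 560. Cldn2, a pore-forming claudin of leaky epithelia, had 51, 21 and 56 counts in CON, 16, 2 and 62 in DNP, and 73, 2 and 8 in BAC. Kcnj13, an inward-rectifier potassium channel, had 82, 37 and 86 counts in CON, 29, 20 and 73 in DNP, and 146, 17 and 24 in BAC. Both were low in the same 3 libraries as Ttr. Cldn2, Kcnj13, F5 and the calcium channel gene Trpv4 belonged to a list of 36 other plexus epithelium markers, of which 33 were tested. Of these 33 genes, 12 had an r of at least 0.7, compared with 157 of 18491 tested genes outside the 10 (0.849%), and the medians were 0.63 and -0.00435.

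The lists of other cell types and regions did not follow the plexus genes in this way. From the values themselves, no gene reached an r of 0.7 among 12 ependymal, 12 meningeal and stromal, 10 oligodendrocyte, 9 endothelial, 3 pineal, 3 pituitary, 5 erythroid, 10 cerebellar and 9 brainstem and spinal cord genes tested. With deviations from the group means, the meningeal and stromal gene Lum had an r of 0.85, compared with 0.43 from the values themselves. In the same list, Slc22a6 had -0.84 with deviations from the group means. Medians of r from the values themselves ran from -0.24 for erythroid to 0.36 for cerebellar genes, with 0.29 for genes of the ependymal cells that line the ventricles. Of the pineal markers, Crx and Gngt1 were at 0 in all 9 libraries.

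**Figure D3:**
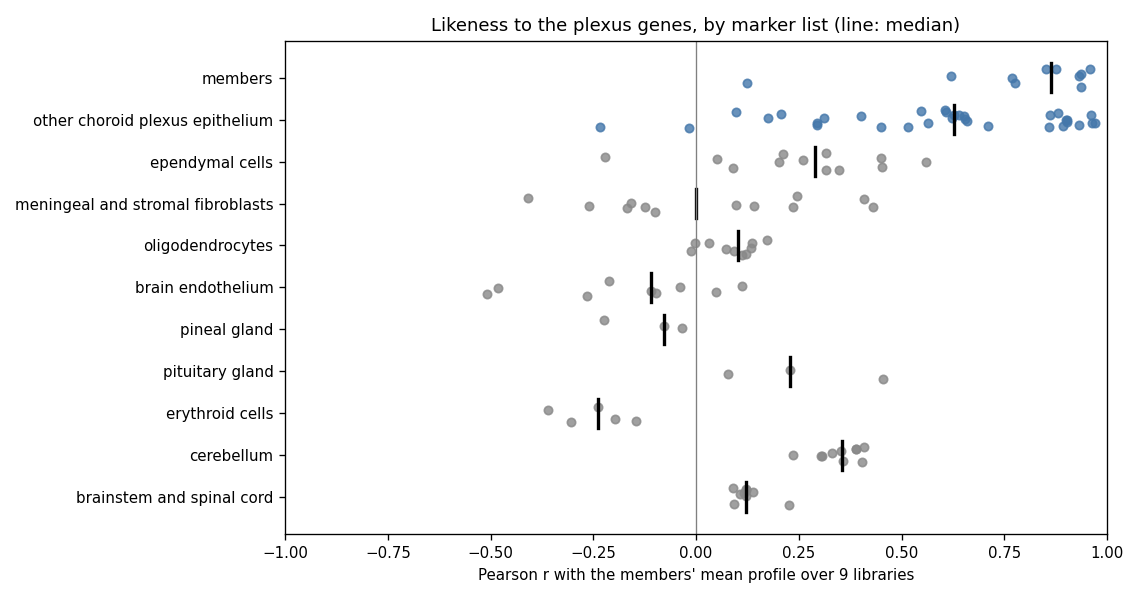
Pearson r over 9 libraries with the mean profile of the 10 plexus genes, 1 point per tested gene, for the 10 genes themselves (each against the other 9) and for 10 marker lists, with a black line at each median. The medians of the 10 genes and of the other plexus markers lie at 0.86 and 0.63, and those of the remaining lists between -0.24 and 0.36.

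The proportions among the plexus genes were then compared with Ttr as the reference, as counts per 1000 Ttr counts. In the 6 libraries with 3395 or more Ttr counts, Folr1 lay between 3.45 and 7.67, Kcne2 between 3.01 and 8.97, and Sostdc1 between 5.23 and 11.9, although Ttr itself differed several-fold. DNP 3 had the lowest ratio for 8 of the 9 genes. Kl, for instance, was at 14.3 per 1000 Ttr counts in DNP 3 and at 36.0 or more in the other 5 libraries. The exception was Otx2, which was lowest in CON 1.

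In the 3 libraries with 33 to 186 Ttr counts, the ratios of Folr1 and Kl were many times larger. Folr1 stood at 112 per 1000 Ttr counts in DNP 2, 90.9 in BAC 2 and 75.3 in BAC 3. Kl stood at 360, 2818 and 387. Slc4a5 stood at 33.7, 152 and 59.1, from 3, 5 and 11 counts, above its highest value in the 6 upper libraries, 20.0 in CON 2. Kcne2 stood at 67.4 in DNP 2 and 273 in BAC 2, compared with at most 8.97 in the 6 upper libraries. In BAC 3 Kcne2 had no count, which allows up to 3 counts beside the 186 of Ttr. Ttr thus differed between the upper and the lower libraries by more than Folr1 or Kl did. The values in BAC 2 rest on 33 counts of Ttr and 3 of Folr1.

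Since the libraries fell into these 2 clusters, no correlation of a single gene with Ttr over all 9 was computed. The 6 upper libraries were set apart by their Ttr counts, and the permutations below shuffled them without regard to group. Within the 6 upper libraries, Folr1 had a Pearson's r of 0.92 with Ttr in log2 CPM (exact permutation p = 0.0236, two-sided, 0.0708 adjusted over 9 genes) and a Spearman's rho of 0.89 (exact permutation p = 0.0333, 0.075 adjusted). Sostdc1 had an r of 0.92 (exact permutation p = 0.0181, 0.0708 adjusted) and the same rho, with exact permutation p = 0.0333 and 0.075 adjusted. Without DNP 3 and BAC 1, which lay farthest from the median of Ttr, r was 0.94 for Folr1 and 0.93 for Sostdc1 in the 4 libraries left. For Otx2 r was 0.49 (exact permutation p = 0.315) and turned to -0.41 without DNP 3 and BAC 1. Aqp1 had an r of 0.76 within the 6 upper libraries (exact permutation p = 0.0986, 0.143 adjusted), and 0.97 without DNP 3 and BAC 1. None of the 9 genes passed an adjusted p of 0.05 by either measure.

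**Figure D4:**
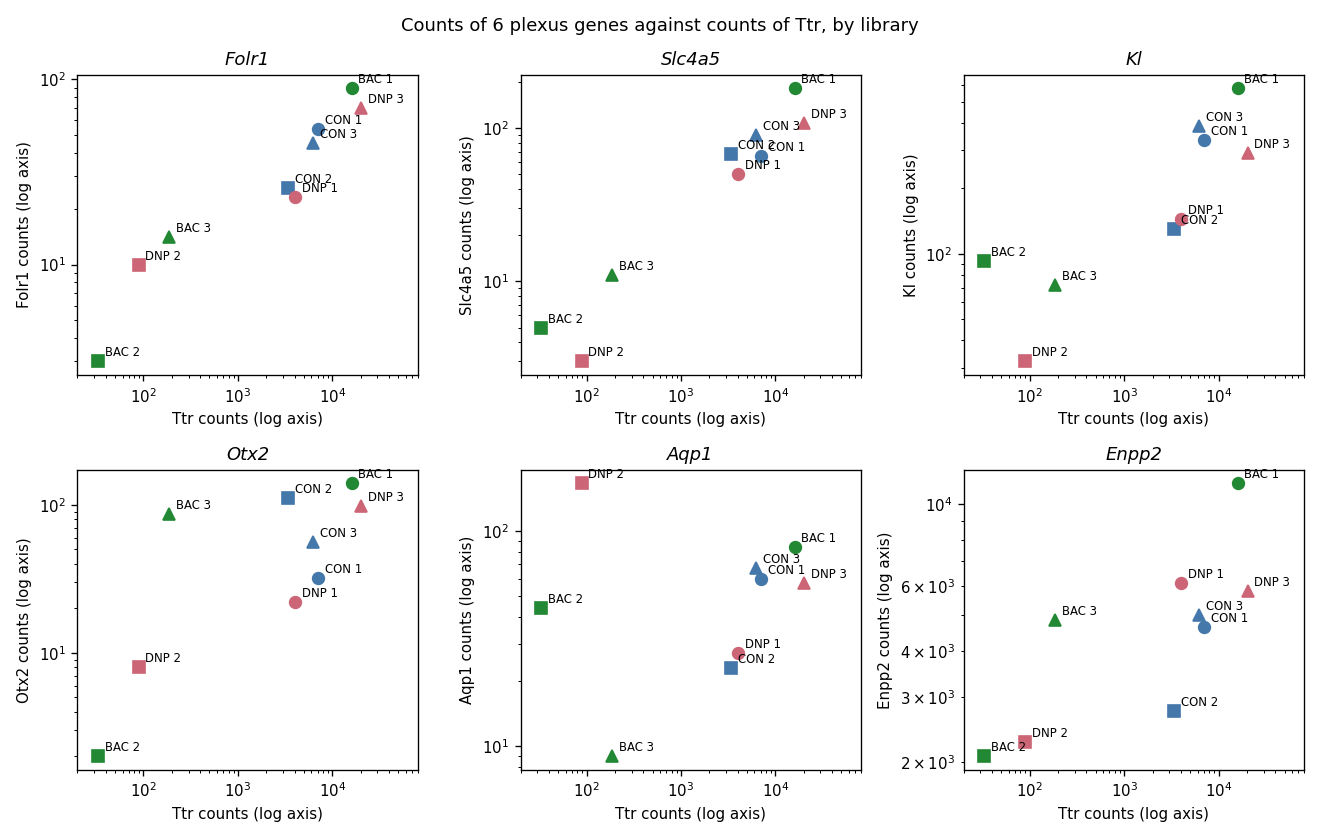
Counts of Folr1, Slc4a5, Kl, Otx2, Aqp1 and Enpp2 against counts of Ttr on log axes, 1 point per library, coloured by group. Folr1, Slc4a5 and Kl fall with Ttr towards DNP 2, BAC 2 and BAC 3, whereas Aqp1 is highest in DNP 2, Otx2 is high in BAC 3 and Enpp2 stays at 4862 counts in BAC 3.

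Departures from the shared pattern were found in several genes. In DNP 2, where Ttr had 89 counts, Aqp1 had 166, its highest value. In BAC 2, where Ttr had 33 counts, Aqp1 had 44 and Clic6 had 195, close to the 198 of CON 2. In BAC 3, with 186 counts of Ttr, Otx2 had 87 and Enpp2 had 4862. Sostdc1 had 34 counts in BAC 3, more than the 21 of CON 2. The cerebellar score was 3.14 in BAC 1, 4.13 in CON 2 and 1.70 in BAC 3, where Otx2 had 140, 111 and 87 counts, and -3.32 in DNP 3, where Otx2 had 99. BAC 3 also had the highest oligodendrocyte score of the 9 libraries, 0.95, with 29679 counts of the myelin gene Mbp, and DNP 1, with a score of 0.90, had 6097 counts of Enpp2. The lowest oligodendrocyte score, -0.95, was that of CON 3, which had 5008 counts of Enpp2, and BAC 1, with the most Enpp2, had a score of 0.51. The parts of cerebellum and oligodendrocytes in the Otx2 and Enpp2 values were not tested.

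Positions were taken from the GENCODE M21 annotation of GRCm38. Slc4a5 (chr6:83219828-83304945), Kl (chr5:150952607-150993817), Kcne2 (chr16:92292389-92298129), Aqp1 (chr6:55336432-55348555) and Sostdc1 (chr12:36314139-36318452) lie on the plus strand and overlap no other annotated gene. The 10 genes lie on 8 chromosomes. Kcne2 and Clic6 (chr16:92485736-92541243) are both on chromosome 16, and Aqp1 and Slc4a5 both on chromosome 6. Folr1 overlaps Anapc15 on the opposite strand, Otx2 overlaps Otx2os1 and Gm49154, Clic6 overlaps 2410124H12Rik, and Enpp2 overlaps Gm26684. The libraries carried no strand, so reads in these overlaps cannot be told apart.

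Promoter windows of 250 bases before a RefSeq transcription start (GRCm38.p6) were examined for 5 of the 10 genes. The windows of Kl and Kcne2, which followed the shared pattern over the 9 libraries, and of Aqp1, which did not over all 9, are shown 5′ to 3′ on the plus strand. None of the 3 overlaps an annotated exon.
Kl, chr5:150952357-150952606: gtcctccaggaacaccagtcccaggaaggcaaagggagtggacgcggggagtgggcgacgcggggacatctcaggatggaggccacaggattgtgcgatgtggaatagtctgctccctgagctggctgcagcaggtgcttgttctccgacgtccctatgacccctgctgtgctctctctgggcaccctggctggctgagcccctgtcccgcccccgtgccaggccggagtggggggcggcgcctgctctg
Kcne2, chr16:92292139-92292388: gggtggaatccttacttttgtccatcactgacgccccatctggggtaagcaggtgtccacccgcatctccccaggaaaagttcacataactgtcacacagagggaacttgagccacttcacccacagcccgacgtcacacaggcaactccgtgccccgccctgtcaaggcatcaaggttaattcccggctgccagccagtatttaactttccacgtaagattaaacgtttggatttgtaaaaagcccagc
Aqp1, chr6:55336049-55336298: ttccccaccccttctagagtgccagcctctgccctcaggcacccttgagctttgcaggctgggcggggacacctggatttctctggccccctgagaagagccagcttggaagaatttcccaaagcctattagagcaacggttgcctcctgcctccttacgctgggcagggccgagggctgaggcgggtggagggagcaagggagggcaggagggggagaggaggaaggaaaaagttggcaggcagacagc
The core TAATCC, which OTX homeodomain proteins bind, or its reverse complement GGATTA occurred in none of these 3 windows. Over all 9 windows of the 5 genes (Kl, Aqp1, Slc4a5, 4 starts of Otx2 and 2 of Kcne2), it occurred in 1, before an Otx2 start (chr14:48665110-48665359, minus strand), with its first base 211 bases upstream. Of 32851 windows of the same length over all genes, 2054 (6.252%) held it. GC content was 66.8% for Kl, 62.0% for Aqp1 and 52.4% for Kcne2, compared with a median of 52.4% (quartiles 45.2% and 61.2%) over all windows. Ttr, Folr1, Clic6, Sostdc1 and Enpp2 had no window among the 9 examined.

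The first comparison, DNP versus CON, asked what the diabetic pain model changed. Mean CPM of Kl was 19.5 ± 9.19 in CON and 10.6 ± 8.45 in DNP (SD, n = 3 each), and the log2 fold change was -0.88 (SE 0.96), the lowest of the 10. With 1 library left out it ran from -1.62 to -0.40, the first without DNP 3 and the second without DNP 2. Aqp1 had the highest, 0.72 (SE 0.85), with 3.44 ± 1.60 CPM in CON and 5.67 ± 4.97 in DNP, of which DNP 2 alone had 11.3. For Ttr it was 0.50 with a SE of 1.96 and a 95% interval from -3.97 to 4.97, so that large differences in both directions remained within the interval. Of the 10 genes, 3 had positive and 7 negative estimates, with a median of -0.30, and the median over all tested genes was 0.01.

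In DNP versus CON, no plexus gene passed an adjusted p of 0.05 in edgeR's quasi-likelihood test (adjusted p 0.778 to 0.977), where 0% of all tested genes did, or in DESeq2, where 1.85% did. None passed an unadjusted p of 0.05, compared with 11.2% of all tested genes. For none did the 3 DNP values lie all above or all below the 3 CON values, compared with 18.2% of tested genes. Without DNP 3, the log2 fold change of Ttr was -1.37 and the median over the 10 genes was -1.33. Without DNP 2, they were 1.07 and 0.08.

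The second comparison, BAC versus DNP, asked what baclofen changed in diabetic mice, and shares the DNP libraries with the first. Otx2 had the highest log2 fold change, 0.86 (SE 1.18), with 5.25 ± 5.01 CPM in BAC and 2.88 ± 3.17 in DNP, and Aqp1 the lowest, -0.82 (SE 0.86). Kl was at 0.73 (SE 0.96) and Ttr at -0.47 (SE 1.96). Estimates were positive for 8 genes and negative for 2, with a median of 0.38, and the median over all tested genes was -0.01.

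Again, in BAC versus DNP no plexus gene passed an adjusted p of 0.05 in edgeR's quasi-likelihood test (adjusted p 0.998 to 0.999), where 0% of tested genes did, or in DESeq2, where 0.0378% did. None passed an unadjusted p of 0.05 (2.37% of tested genes) and none had groups that did not overlap (6.79% of tested genes). These values depended on BAC 1. Without it, the log2 fold change in edgeR was -6.27 for Ttr (unadjusted p = 0.0164), -2.79 for Slc4a5 (0.0460) and -2.91 for Kcne2 (0.0494), the median was -1.30, and still none passed the adjusted threshold.

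The third comparison, BAC versus CON, shares its libraries with the other two. The mean CPM of Ttr was 383 ± 123 in CON and 391 ± 666 in BAC, a log2 fold change of 0.03 (SE 1.95) with 1 BAC library above and 2 below all CON libraries. Enpp2 had the highest estimate, 0.57 (SE 0.62), with 285 ± 80.2 CPM in CON and 424 ± 355 in BAC. Folr1 had the lowest, -0.19 (SE 1.04). Estimates were positive for 5 genes and negative for 5, with a median of -0.03, and the median over all tested genes was -0.02.

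In BAC versus CON, no plexus gene passed an adjusted p of 0.05 in edgeR's quasi-likelihood test (adjusted p 0.843 to 0.996), where 0% of tested genes did, or in DESeq2, where 0.541% did. None passed an unadjusted p of 0.05 (7.76% of tested genes) and none had groups that did not overlap (13.4% of tested genes). Without BAC 1, the estimates in edgeR were -5.77 for Ttr (unadjusted p = 0.0212), -3.30 for Slc4a5 (0.0252), -3.22 for Kcne2 (0.0348) and -2.37 for Folr1 (0.0343), with a median of -1.45 and no gene past the adjusted threshold. BAC 1 was also 1 of the 3 libraries with Hox counts. Without these 3, which leaves BAC 2 alone in its group and assumes that it varies like the other libraries, the median over the 10 genes was -0.26 in DNP against CON, -1.72 in BAC against DNP and -1.91 in BAC against CON.

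**Figure D5:**
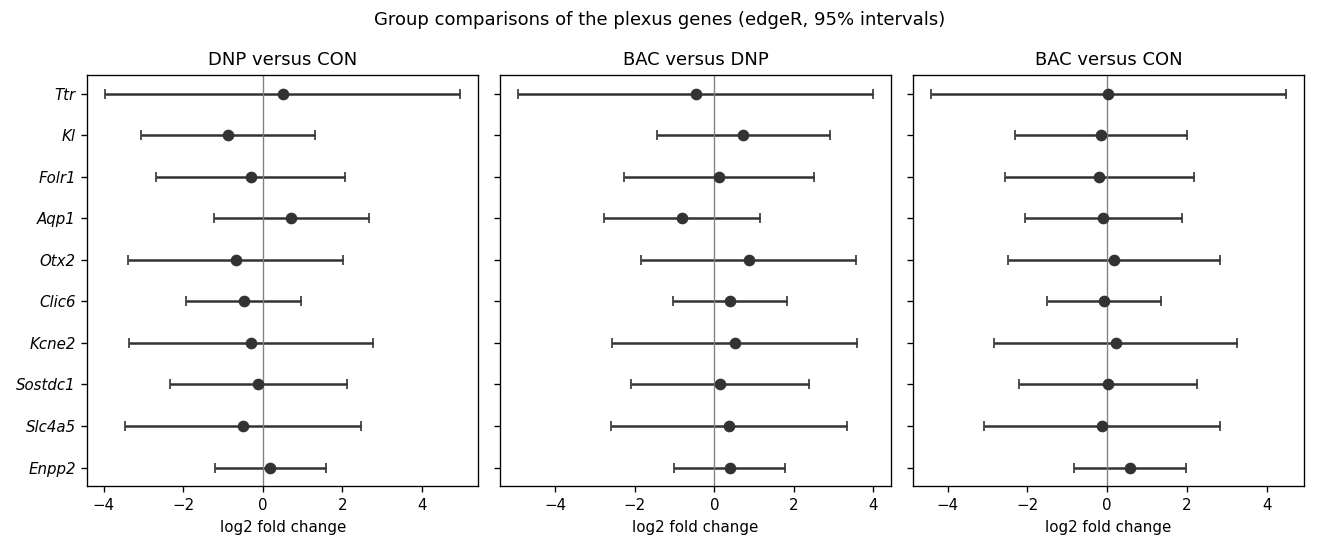
Log2 fold changes of the 10 plexus genes in the 3 comparisons from edgeR's quasi-likelihood fit (points) with 95% intervals (bars). Every interval spans 0, and the widest, for Ttr, runs from -3.97 to 4.97 in DNP versus CON.

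The other plexus markers differed in how they behaved across libraries. The 6 with the highest mean FPKM were Atp1b1, Igfbp2, Slc29a4, 1500015O10Rik, Slc4a2 and Ace, and of these only 1500015O10Rik followed the 10 genes closely (r = 0.90), with 84, 91 and 69 counts in CON, 49, 12 and 207 in DNP, and 203, 10 and 51 in BAC. Atp1b1, a subunit of the sodium pump that neurons also express, had an r of -0.02 and 16952 to 27793 counts. The anion exchanger gene Slc4a2 had an r of 0.29, the angiotensin-converting enzyme gene Ace 0.62, the monoamine transporter gene Slc29a4 0.21 and Igfbp2, which encodes a binding protein of insulin-like growth factors, 0.10.

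Of the 33 tested, an unadjusted p of 0.05 was passed by 1 in DNP versus CON, by 2 in BAC versus DNP and by 1 in BAC versus CON, compared with 11.2%, 2.37% and 7.76% of all tested genes. In edgeR no gene of this list reached an adjusted p of 0.05. Slc13a4, a sulfate transporter expressed in plexus and meninges, had 265, 249 and 298 counts in CON, 68, 134 and 149 in DNP, and 258, 225 and 177 in BAC. Its 3 DNP values lay below all others. The log2 fold change in edgeR was -1.24 in DNP versus CON (SE 0.29, adjusted p = 0.294, unadjusted p = 0.00252) and 0.93 in BAC versus DNP (SE 0.29, adjusted p = 0.998, unadjusted p = 0.0120). In DESeq2 it passed in DNP versus CON (adjusted p = 0.010). Slc13a4 did not follow the plexus genes (r = 0.31).

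Sulf1, an extracellular sulfatase, had 224 to 366 counts in DNP, and its log2 fold change was 0.68 in BAC versus DNP (edgeR, unadjusted p = 0.0457). Htr2c, the serotonin 2C receptor of plexus and neurons, had 697, 119 and 412 counts in CON and 1167, 1279 and 1785 in BAC, where the groups did not overlap, with a log2 fold change of 1.77 in BAC versus CON (edgeR, adjusted p = 0.628, unadjusted p = 0.0222). Its r with the 10 genes was -0.23. The remaining genes of the 6 with the smallest p in DNP versus CON, Tmem72, Atp1b1 and Igfbp2, had unadjusted p values above 0.05 in edgeR. In DESeq2 the unadjusted p of Tmem72 was 0.0448 (adjusted p = 0.364). Tmem72, a membrane protein gene of the plexus, had 96, 42 and 110 counts in CON, 35, 9 and 4 in DNP, and 180, 8 and 8 in BAC, with the 3 DNP values below all CON values. It thus had 4 counts in DNP 3, the library with the most Ttr.

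Markers of neighbouring tissue moved with Slc13a4. Of 12 meningeal and stromal fibroblast genes, 9 were lower in DNP versus CON and 10 higher in BAC versus DNP at an unadjusted p of 0.05 in edgeR (5.46% and 1.37% of tested genes in these directions), with none past the adjusted threshold of edgeR. In DESeq2, Fmod, Igf2, Slc22a6 and Slc47a1 passed an adjusted p of 0.05 in DNP versus CON (adjusted p 0.0103, 0.0106, 0.0198 and 0.0286), all lower in DNP, and Slc47a1 in BAC versus DNP (adjusted p = 0.0410), higher in BAC. In either direction, 1.85% and 0.0378% of tested genes passed in these comparisons in DESeq2. The score of the 12 genes was -0.06 to 0.46 in CON, -0.88 to -0.51 in DNP and 0.22 to 0.50 in BAC, and their summed level 172 to 232 CPM in CON, 110 to 132 CPM in DNP and 182 to 221 CPM in BAC. No gene of this list was at 0 in any library. The part of meningeal tissue in the values of Slc13a4 was not tested. The 12 ependymal genes all had positive estimates in DNP versus CON, compared with 9509 of all 18501 tested genes. Of the 12, 1 passed an unadjusted p of 0.05 in edgeR (5.71% of tested genes in this direction). The ependymal score overlapped between the groups, with -1.31 to 0.13 in CON and -0.10 to 1.26 in DNP.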

How the data were processed

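Whole-brain RNA of 9 mice was sequenced as paired-end, non-strand-specific poly(A) libraries. The authors used FastQC 0.11.9 and fastp for quality control, HISAT2 2.1.0 for alignment to GRCm38 and StringTie 1.3.3b for quantification, and the submitters' notes also name Bowtie2 2.3.4.1. The authors deposited gene counts without normalization, used for all tests, and FPKM, used for levels per gene length. How reads mapping to several genes were counted is not given in the sources used here.

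Genes were kept by filterByExpr (minimum count 10) and tested with edgeR 4.0.16 (R 4.3.3) by the quasi-likelihood test after TMM normalization, with all 9 libraries and group as the factor, and Benjamini-Hochberg adjustment over 18501 genes at a threshold of 0.05. Totals of 13107382 to 16008129 counts limit the precision, and the biological coefficient of variation was 36.48%. SE is the log2 fold change divided by the root of F. CPM used TMM-scaled library sizes, and r used log2 CPM with a prior count of 2. The pipeline was tested on simulated data. Alternatives were DESeq2 1.42.0, relative log expression factors (RLE), library totals, no filter, limma 3.58.1 on log2(FPKM + 1) or log2(FPKM + 0.1), only the 2 groups compared, a replicate block and the omission of each library. After seeing the data, cerebellar and brainstem scores as covariates and a fit without the 3 libraries with Hox counts were added. Deviations of same-numbered libraries of different groups correlated from -0.579 to 0.560, and those of differently numbered libraries from -0.701 to 0.614. The numbers were therefore not taken as pairs. The 10 genes and all marker lists were chosen with earlier results of these data known. Other genes named were the 6 of the remaining plexus list with the highest mean FPKM, the 6 with the smallest p in DNP versus CON, the 10 most alike and, of each other list, up to 2 with the highest mean FPKM. The Hox genes, Mbp, Mal, Ly6c1, Lum, Slc22a6, Slc47a1, Crx and Gngt1 were named after their values were seen. A gene that this rule names is left out of the text.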

Additional observations from a re-analysis of the deposited data

How the results depend on the processing

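No plexus gene passed an adjusted p of 0.05 in any of the 19 alternatives (570 values, smallest adjusted p 0.428), but direction was not stable. In 98 of the 570 values the sign of the log2 fold change turned, for 28 of 30 gene and comparison pairs, and the cause was not tested. Intervals were wide, so these data limit differences only loosely, and Folr1, Otx2, Kcne2, Sostdc1 and Slc4a5 had 6 or fewer counts in at least 1 library. All values below are log2 fold changes or numbers of genes past an unadjusted p of 0.05 ("past p"), and single genes are given where the sign turned or as ranges. With DESeq2, the values were 2 other plexus markers past p in DNP against CON. With only the 2 groups compared, the values were 2 other plexus markers past p in DNP against CON, and 1 other plexus marker past p in BAC against DNP. With limma on log2(FPKM + 1), the values were Ttr -1.34 in DNP against CON, and 1 other plexus marker past p, Kcne2 -0.058 in BAC against DNP, and Kcne2 -0.31, Ttr -3.23, Sostdc1 -0.031 in BAC against CON. With limma on log2(FPKM + 0.1), the values were Ttr -1.42 in DNP against CON, and 1 other plexus marker past p, Slc4a5 -0.17, Folr1 -0.27, Kcne2 -0.77 in BAC against DNP, and Kcne2 -1.38, Ttr -3.46, Otx2 -0.18, Sostdc1 -0.12 in BAC against CON. With library totals only, the values were the median 0.058 in BAC against CON. With the regional scores as covariates, the values were the median 0.060, Slc4a5 0.42, Kcne2 0.14, Enpp2 -0.21, Otx2 1.39 in DNP against CON, and the median -0.42, Slc4a5 -1.04, Folr1 -0.80, Kcne2 -0.49, Enpp2 -0.35, Otx2 -0.70, Sostdc1 -0.27 in BAC against DNP, and Aqp1 0.75, Kcne2 -0.35, Enpp2 -0.56, Ttr -2.73, Sostdc1 -0.41, Clic6 0.37 in BAC against CON. Without the 3 libraries with Hox counts, the values were 3 other plexus markers past p, Enpp2 -0.10, Sostdc1 0.074 in DNP against CON, and the median -1.72, Slc4a5 -3.38, Folr1 -3.62, Kcne2 -1.82, Enpp2 -0.90, Kl -0.73, Otx2 -4.59, Sostdc1 -1.63 in BAC against DNP, and 1 of the 10 genes past p, 2 other plexus markers past p, the median -1.91, Kcne2 -2.20, Enpp2 -1.001, Ttr -7.40, Otx2 -5.00, Sostdc1 -1.56 in BAC against CON. The gene past p without these 3 libraries was Folr1, with -3.74 in BAC against CON (unadjusted p = 0.0429). Of the 10 most alike genes, 6 stayed among the 10 with r of deviations from the group means.

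With each library left out in turn, DNP 2, DNP 3 and BAC 1 moved the medians most. The ranges in DNP versus CON were other plexus markers past p 1 to 3, median -1.33 to 0.082, Slc4a5 -1.45 to 0.043, Folr1 -1.29 to 0.12, Aqp1 -0.28 to 1.13, Kcne2 -0.93 to 0.19, Enpp2 -0.090 to 0.52, Ttr -1.37 to 1.07, Kl -1.62 to -0.40, Otx2 -2.12 to -0.073, Sostdc1 -1.42 to 0.41, Clic6 -1.12 to -0.14. Those in BAC versus DNP were plexus genes past p 0 to 3, other plexus markers past p 1 to 3, median -1.30 to 1.23, Slc4a5 -2.79 to 1.31, Folr1 -2.06 to 1.09, Aqp1 -1.66 to 0.18, Kcne2 -2.91 to 1.15, Enpp2 -0.53 to 0.80, Ttr -6.27 to 1.40, Kl -0.95 to 1.47, Otx2 -0.029 to 2.29, Sostdc1 -0.93 to 1.44, Clic6 -0.31 to 1.03. Those in BAC versus CON were plexus genes past p 0 to 4, other plexus markers past p 0 to 6, median -1.45 to 0.43, Slc4a5 -3.30 to 0.41, Folr1 -2.37 to 0.35, Aqp1 -0.94 to 0.41, Kcne2 -3.22 to 0.80, Enpp2 -0.35 to 0.99, Ttr -5.77 to 0.61, Kl -1.84 to 0.31, Otx2 -0.73 to 0.80, Sostdc1 -1.06 to 0.47, Clic6 -0.80 to 0.35.

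The replicate numbers gave no pairing of animals, and same-numbered libraries correlated above 0.1 in 1, 2 and 0 of 3 pairs in the 3 comparisons. With the replicate number as a block, the values were 3 other plexus markers past p, Ttr -1.44 in DNP against CON, and 1 other plexus marker past p, Slc4a5 -0.10, Folr1 -0.38, Kcne2 -0.086 in BAC against DNP, and Kcne2 -0.72, Ttr -3.13, Otx2 -0.53, Sostdc1 -0.0089 in BAC against CON. The block left the count of plexus genes past an unadjusted p at 0 in each comparison.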

Other observations

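The remaining marker lists moved as follows at an unadjusted p of 0.05 in edgeR, with no gene past the adjusted threshold of edgeR in any comparison. Shares in parentheses are those of all tested genes in the same direction. All 10 oligodendrocyte genes were higher in DNP versus CON, where 5.71% of tested genes were, and 8 in BAC versus CON (4.46%). In DESeq2, 1 of the 10, Mal, passed an adjusted p of 0.05 in DNP versus CON (adjusted p = 0.0381). All 5 erythroid genes were higher in DNP versus CON (5.71%) and in BAC versus CON (4.46%) by edgeR's unadjusted p. They also passed by DESeq2's adjusted p in both comparisons. Hba-a1, an alpha globin gene nearly identical to Hba-a2 so that its reads are uncertain, had 1300 to 1572 counts in CON and 2740 to 5569 in the other libraries. Of 9 endothelial genes, 2 were higher in DNP versus CON (5.71%), 5 lower in BAC versus DNP (1.0%) and 3 lower in BAC versus CON (3.3%), and DESeq2 called Ly6c1 in DNP versus CON (adjusted p = 0.0126). Cldn5, the tight junction gene of brain vessels, had 431 to 575 counts in CON and 244 to 513 in BAC. Of 10 cerebellar genes, 1 was lower in DNP versus CON (5.46%) and 1 higher in BAC versus DNP (1.37%), and DESeq2 called Itpr1, lower in DNP versus CON (adjusted p = 0.00519). Car8, a gene of Purkinje cells, had 329, 14508 and 2910 counts in CON. Of 9 brainstem and spinal cord genes, 7 were higher in BAC versus CON (4.46%) and none passed in DNP versus CON. DESeq2 called Hoxb3 and Hoxd3, higher in both comparisons with CON. These calls rest on single libraries: Hoxb3 had 185 and Hoxd3 141 counts in DNP 1, and both were at 0 in DNP 2, DNP 3 and BAC 2. Slc6a5, the glycine transporter of inhibitory neurons in these regions, had 3974, 3064 and 2609 counts in DNP 1, BAC 1 and BAC 3 and at most 397 elsewhere. Of 3 tested pituitary genes, 1 was higher in DNP versus CON (5.71%). Gh, growth hormone, had 141 counts in DNP 1, 95 in BAC 1, 22 in BAC 2 and at most 12 elsewhere, and none of the 3 tested pineal genes passed in any comparison.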
